A study of Rattus norvegicus with 15 samples.

Results

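The 10 genes of glycolysis and glycogen use were followed across 15 libraries of rat multifidus, a deep muscle beside the spine. They are the glucose transporter Slc2a4, the glycolysis enzymes Hk2, Pfkm, Aldoa, Gapdh, Eno3 and Pkm, the lactate dehydrogenases Ldha and Ldhb, and the glycogen phosphorylase Pygm. They were chosen by gene symbol, and each symbol matched 1 row of the table, giving 10 of 37991 genes. All 10 passed the filter on low counts that left 17201 genes for testing. The study asked whether mitochondria isolated from human blood plasma (pMT) affect paraspinal muscle that wastes after spinal surgery, and its table adds vitamin D (VitD). All rats were male wild type Sprague Dawley rats aged 12 weeks. The Control group (2 libraries) had no injury and the Surgery group (2 libraries) had surgery without later treatment. The pMT group (4 libraries) received 25 µg of pMT at each of a pair of sites in the left paraspinal muscle, 50 µg per rat, 14 days after surgery. The VitD group (3 libraries) had surgery and then 150 µg of cholecalciferol per site, 300 µg per rat. The pMT/VitD group (4 libraries) had surgery and then both agents at these doses. Control, Surgery and pMT muscle was taken on day 28, and the injection and collection days of the VitD groups are not given in the sources used here. Surgery was a left lumbar hemilaminectomy with ligation of a spinal nerve, so the injury of the operation and the denervation cannot be told apart. No group received the injection buffer alone, so an agent and its injection cannot be told apart. Nothing in the labels says that the libraries of a group came from separate rats, so every p-value measures the spread between libraries only.

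Skeletal muscle takes up blood glucose through GLUT4, the insulin-responsive transporter encoded by Slc2a4, and hexokinase traps it as glucose 6-phosphate. Phosphofructokinase (Pfkm in muscle) is the committed step of glycolysis, and aldolase, glyceraldehyde-3-phosphate dehydrogenase, enolase and pyruvate kinase complete the path to pyruvate. Glycogen phosphorylase (Pygm) feeds the same path from stored glycogen. Lactate dehydrogenase is a tetramer of A and B subunits, of which the A subunit dominates in fast muscle and the B subunit in heart and oxidative fibers. Fast fibers hold high levels of these enzymes.

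Sequence upstream of the start of transcription is shown for Ldha and Ldhb, whose ratio differed among groups, and for Pygm, whose level spread the most. Neither Ldha nor Ldhb alone passed the test across the groups. RefSeq promoters on the GRCr8 build were matched for 9 of the 10 genes (11 promoters, since Aldoa has 3), and Slc2a4 had no entry. Each run holds the 250 bases before the start, read 5′ to 3′ in the direction of the gene. The window lies at chr1:106507842-106508091 on the plus strand for Ldha, at chr4:177177409-177177658 on the minus strand for Ldhb and at chr1:213119555-213119804 on the plus strand for Pygm. Capitals mark every match, on either strand, to CANNTG (the E-box read by MyoD-type factors among others) or to ACGTG (the core of the hypoxia response element).
Ldha: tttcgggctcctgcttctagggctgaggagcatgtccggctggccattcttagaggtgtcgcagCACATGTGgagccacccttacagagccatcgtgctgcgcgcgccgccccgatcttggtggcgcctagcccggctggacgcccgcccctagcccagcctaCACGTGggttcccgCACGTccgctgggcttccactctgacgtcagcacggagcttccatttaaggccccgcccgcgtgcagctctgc
Ldhb: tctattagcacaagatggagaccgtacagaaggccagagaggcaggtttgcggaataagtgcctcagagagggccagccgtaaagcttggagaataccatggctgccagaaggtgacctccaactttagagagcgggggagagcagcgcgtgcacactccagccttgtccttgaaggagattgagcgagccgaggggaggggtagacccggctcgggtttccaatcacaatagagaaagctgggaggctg
Pygm: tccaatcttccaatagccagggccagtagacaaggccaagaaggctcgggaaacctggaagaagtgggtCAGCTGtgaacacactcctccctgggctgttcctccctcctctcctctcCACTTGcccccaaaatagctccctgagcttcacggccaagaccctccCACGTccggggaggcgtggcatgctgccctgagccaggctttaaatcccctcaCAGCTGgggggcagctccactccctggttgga
The Ldha window held 3 CANNTG matches, of which 2 overlap each other, and 3 ACGTG matches, of which 2 are the opposite strands of the remaining E-box. The Pygm window held 3 CANNTG matches and 1 ACGTG match, apart from each other. The Ldhb window held neither. CANNTG was present in 4 of the 11 windows and in 65.5% of all 33469 promoter windows of that length, and ACGTG in 5 of the 11 and in 16.6% of all. These matches describe letters, and no binding was measured.

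Each library held between 52342134 and 73557878 counted reads, so that even Hk2, the lowest gene, rested on 1696 to 4948 reads per library. Levels within a gene are given as CPM, counts scaled to a common library size with a TMM factor, which sets the libraries to a common middle over all genes. The TMM factors were 0.924 and 0.933 in Control, 1.12 in both Surgery libraries, 0.857 to 1.09 in pMT, 0.849 to 0.982 in pMT/VitD and 1.09 to 1.20 in VitD. The tissue label held: Acta1, Ckm and Mb, defining genes of skeletal muscle, averaged 51656, 25532 and 5002 TPM (deposited values scaled per length to a common total). The libraries pMT 4, pMT/VitD 4 and VitD 1 stood apart. The library pMT 4 had 22.6% of its counts in the 13 mitochondrial protein genes against 11.1% to 12.9% in the other pMT libraries, and its Hk2 level lay with pMT/VitD 1 and 2. The library pMT/VitD 4 had 11.5% against 13.5% to 17.7%, and its Hk2 level lay above pMT 1 to 3. The rank correlation of its deviations with gene length also differed in sign from that of its group, at 0.15 against -0.39 to -0.17, and so did that of pMT 4, at -0.32 against 0.02 to 0.45. The library VitD 1 had the lowest share of transcripts in the 10 genes, 2.85% of TPM, against 4.12% to 5.59% in the other 14. In Hk2 and in the length trend, pMT 4 and pMT/VitD 4 thus each lay nearer the other treated group than their own, and whether their labels were exchanged cannot be told from these values, so the labels were kept. What the pMT and pMT/VitD means stand for depends on it. Results that rest on these libraries are given with and without them.

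Levels between genes were compared per length, in TPM. Statements below on how the libraries separate for a single gene are in CPM, and some of them do not hold in TPM. The order was fixed almost everywhere. Aldoa (mean 16731 TPM over 15 libraries, range 8594 to 20178) and Gapdh (14159 TPM) led, followed by Eno3 (6911), Pygm (3779.8), Ldha (2057), Pkm (1812), Pfkm (1407), Slc2a4 (249), Ldhb (159) and Hk2 (11.9). Each gene exceeded the next in all 15 libraries at 6 of the 9 steps. The exceptions were Aldoa over Gapdh, Pygm over Ldha and Ldha over Pkm, each in 14 of 15. The pair Ldha and Pkm lay closest in mean level, and Pygm dropped below Ldha in VitD 1 alone. The A subunit of lactate dehydrogenase thus exceeded the B subunit throughout, and the transporter exceeded the inducible hexokinase throughout.

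For glucose entry, Slc2a4 separated the groups in CPM and Hk2 did not. Slc2a4, which encodes GLUT4, was at 505 and 516 CPM in the Control libraries, 377 and 372 in Surgery, 525, 544, 570.3 and 525 in pMT, 480.2, 475, 473 and 553 in pMT/VitD and 301, 363 and 397 in VitD. In CPM every Surgery and VitD library was below every Control, pMT and pMT/VitD library. In TPM this split was lost. There pMT/VitD 1 to 3 (196, 203 and 208) and pMT 4 (212) lay below both Surgery libraries (232 and 228). Hk2, the insulin-regulated hexokinase, was at 58.7 and 56.3 CPM in the Control libraries, 43.0 and 44.6 in Surgery, 59.3, 63.3, 65.9 and 36.4 in pMT, 36.6, 37.3, 49.3 and 68.2 in pMT/VitD and 39.4, 44.8 and 43.3 in VitD. Its pMT and pMT/VitD groups each held both low and high libraries, and without the libraries numbered 4 the pMT group lay at 59.3 to 65.9 CPM and the pMT/VitD group at 36.6 to 49.3 CPM.

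Pfkm and Aldoa, in the middle of glycolysis, showed the same split of groups. Pfkm, the muscle phosphofructokinase, was at 3408 and 3273 CPM in the Control libraries, 2088 and 2122 in Surgery, 3373, 3374, 3383 and 3258 in pMT, 3218, 3101, 3590.3 and 3355 in pMT/VitD and 1346, 2079 and 2295 in VitD. The Control, pMT and pMT/VitD libraries fell between 3101 and 3590.3 CPM and the Surgery and VitD libraries between 1346 and 2295, with no overlap. In TPM, pMT 4 (1212) and pMT/VitD 1 and 2 (1210 and 1222) lay below VitD 3 (1285). Aldoa, the muscle aldolase, was at 21482 and 19258 CPM in the Control libraries, 12828 and 12644 in Surgery, 17296, 16376, 15154 and 20934 in pMT, 22322, 23136, 24025 and 19531 in pMT/VitD and 7389, 12232 and 14121 in VitD. Its pMT libraries lay between the Surgery and Control levels apart from pMT 4, which reached the Control level.

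The lower steps behaved alike. Gapdh, which makes the first NADH of glycolysis, was at 16524 and 15321 CPM in the Control libraries, 10869 and 10626 in Surgery, 14041, 12282, 10961 and 16650.1 in pMT, 18355, 19404, 18511 and 14675 in pMT/VitD and 7037, 10358 and 11640.4 in VitD. Eno3, the muscle enolase, was at 8264 and 8150.2 CPM in the Control libraries, 6133 and 6221 in Surgery, 7579, 7009, 6392 and 9025 in pMT, 9295, 9311, 9692 and 7509.9 in pMT/VitD and 5194, 6186 and 6592 in VitD. Both were highest in pMT/VitD 1 to 3 and lowest in VitD 1, and in both pMT 4 lay above the other pMT libraries. In both, pMT 3 lay below VitD 3, so that the pMT and VitD groups overlapped. Pkm, pyruvate kinase, was at 3941 and 3689.9 CPM in the Control libraries, 2578 and 2502 in Surgery, 3270.3, 3421, 3491 and 3305 in pMT, 3588, 3696, 3839 and 4039.5 in pMT/VitD and 1607, 2453 and 2781 in VitD. In Pkm the 4 pMT libraries lay below both Control libraries and above both Surgery libraries.

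The subunits of lactate dehydrogenase went in opposite directions between Surgery and Control, though neither passed the test given below. Ldha was at 2843 and 2811 CPM in the Control libraries, 2098 and 2109 in Surgery, 2655, 2411, 2200.5 and 2655 in pMT, 2729, 2787, 2982 and 2745 in pMT/VitD and 1798, 2069 and 2162 in VitD. Ldhb was at 146 and 137 CPM in the Control libraries, 172 and 158 in Surgery, 141, 146, 149.9 and 193 in pMT, 185, 177, 148.2 and 141 in pMT/VitD and 135, 159 and 171 in VitD. The Surgery libraries were the lower ones for Ldha and the higher ones for Ldhb when set beside Control, and the Ldhb groups otherwise overlapped. In glycogen breakdown, Pygm was at 10461 and 9909 CPM in the Control libraries, 6156 and 6114 in Surgery, 8277, 8639, 8976 and 7463 in pMT, 8711, 9379.8, 9633 and 11178 in pMT/VitD and 2703, 5971 and 7196 in VitD. Its level in VitD 1 was 2703 CPM against a highest value of 11178 CPM in pMT/VitD 4, and its coefficient of variation in the VitD group, 43.9%, was the highest of any gene and group among the 10.

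**Figure D1:**
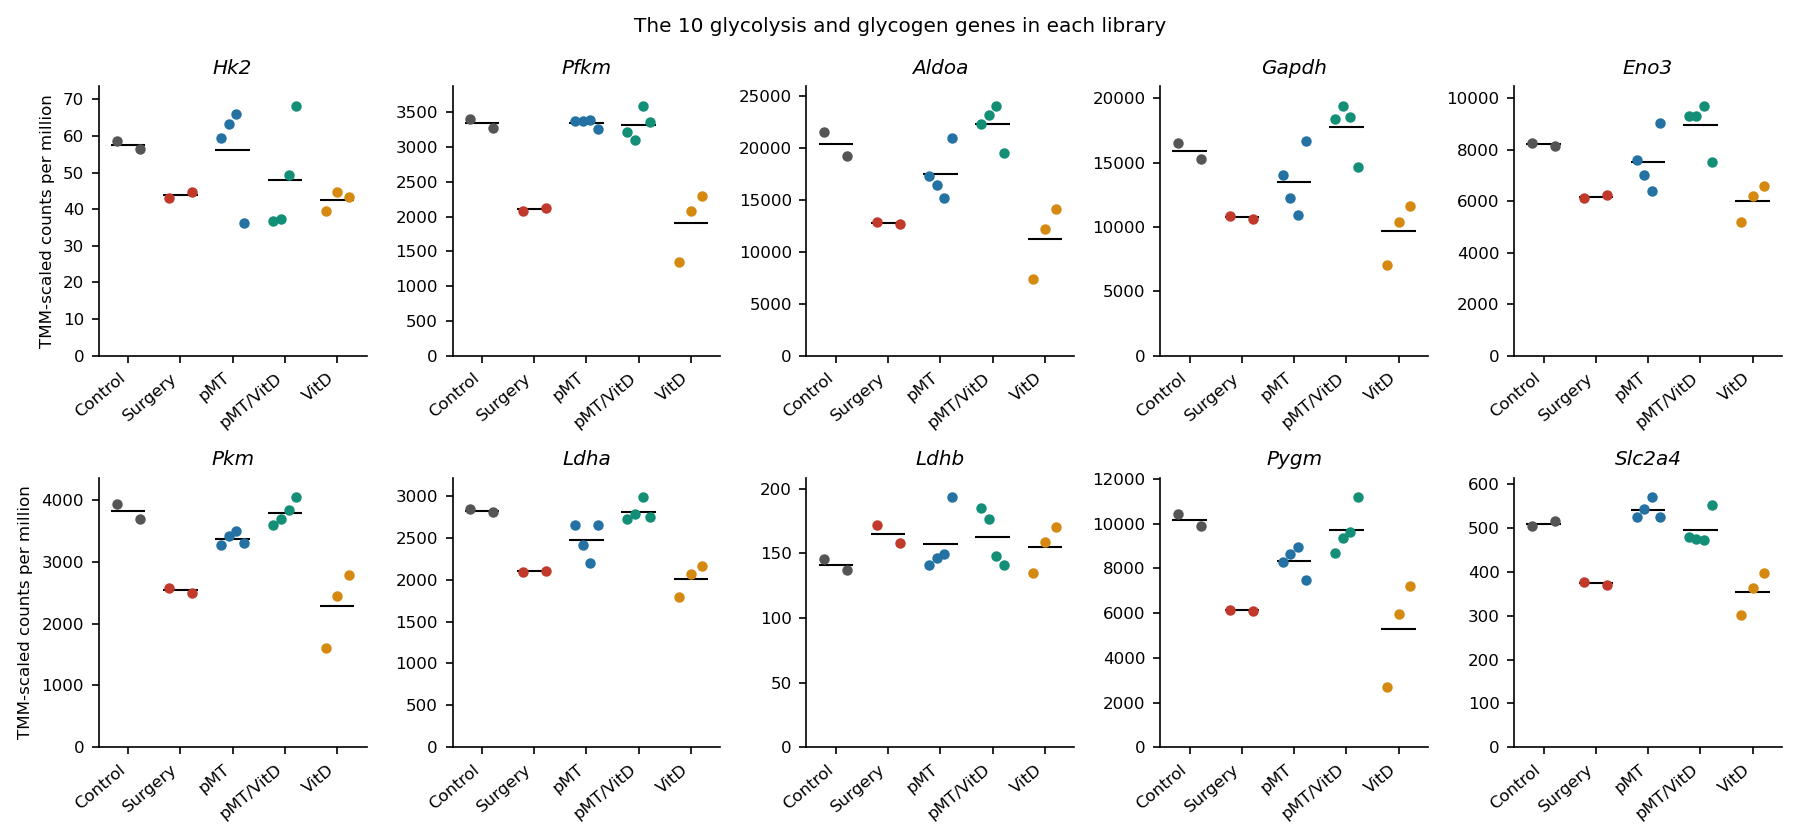
Level of each of the 10 genes in each library, in TMM-scaled CPM on linear axes from 0, by group. Points are libraries in order of their number and lines are group means. For 9 genes the Surgery and VitD points lie below the Control points, Ldhb being the exception, and Hk2 spreads widely in pMT and pMT/VitD.

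A single test across the 5 groups found 5 of the 10 genes different. It was edgeR's quasi-likelihood F-test (two-sided by construction) over all 15 libraries, adjusted over the 17201 genes by Benjamini-Hochberg, with a call at an adjusted p under 0.05. Of all genes, 11.8% were called. The 5 were Pfkm (adjusted p = 0.00941), Slc2a4 (0.0104), Aldoa (0.0253), Pkm (0.0270) and Gapdh (0.0410). Ldha missed the threshold at an adjusted p of 0.0512, as did Pygm and Eno3, at 0.0886 and 0.0888, while Hk2 was at 0.521 and Ldhb at 0.848. DESeq2 called 8 of the 10 and 21.6% of all genes. The count was 8 without the libraries pMT 4 and pMT/VitD 4 together, where 29.8% of all genes were called. It was lower without either Control library, either Surgery library, VitD 2 or any of pMT/VitD 1 to 3, each left out alone. For these fits the share of all genes is not given here, so the fall is not by itself a result about the 10 genes.

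Surgery without treatment was set against no injury, both on day 28. Of the 10 genes, 9 were lower in both Surgery libraries than in both Control libraries, and Ldhb was higher in both, but none of the 10 was called. Such separation downward held for 34.4% of all genes, and 1.55% of all genes were called. The median log2 difference of the 10 was -0.51, against -0.01 over all genes. Pygm had the largest difference, with 6135 ± 29.5 CPM (SD, n = 2) in Surgery against 10185 ± 390.0 CPM (SD, n = 2) in Control, a log2 difference of -0.73 ± 0.32 (SE, edgeR adjusted p = 0.260). Aldoa differed by -0.68 ± 0.27 (adjusted p = 0.208), Pfkm by -0.67 ± 0.21 (0.118), Slc2a4 by -0.45 ± 0.15 (0.138) and Ldhb by 0.23 ± 0.18 (0.561). At an unadjusted p under 0.05, 7 of the 10 passed, where 17.0% of all genes did. DESeq2 called 4 (Pfkm, Pkm, Ldha and Slc2a4), where it called 5.82% of all genes. The coefficient of variation between the Surgery libraries was at most 5.97% for any of the 10 genes, against up to 43.9% in VitD. A fit of the Control and Surgery libraries alone, which takes the spread from them only, called all 10 but also 32.4% of the genes it tested, and the fit without VitD 1 called 5 (Pfkm, Aldoa, Pkm, Pygm and Slc2a4) and 5.98% of all.

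The pMT group was set against Surgery to see whether pMT changed these genes after injury. Of the 10 genes, 8 lay above both Surgery libraries in all 4 pMT libraries in CPM, Hk2 and Ldhb being the exceptions, yet none passed the edgeR test. All-library separation upward in CPM held for 13.2% of all genes and 1.94% of all genes were called in either direction. In TPM, pMT 4 lay below both Surgery libraries for Eno3, Pkm, Ldha, Pygm and Slc2a4, while pMT 1 to 3 stayed above them. For Pygm it was at 2668 TPM against 3348 and 3327. The median log2 difference of the 10 was 0.38, against 0.02 over all genes. Slc2a4 came nearest, at 541 ± 21.6 CPM (SD, n = 4) against 374 ± 3.97 CPM (SD, n = 2), a log2 difference of 0.53 ± 0.13 (SE, edgeR adjusted p = 0.0562). Pfkm followed, at 3347 ± 59.4 CPM (SD, n = 4) against 2105 ± 24.1 CPM (SD, n = 2), with 0.67 ± 0.19 (adjusted p = 0.0872). The other members ranged from -0.07 ± 0.16 for Ldhb to 0.45 ± 0.23 for Aldoa. At an unadjusted p under 0.05, 3 of the 10 passed (Pfkm, Pkm and Slc2a4), where 14.3% of all genes did. DESeq2 called 4.34% of all genes, among them Pfkm (log2 difference 0.66, adjusted p = 0.00234) and Slc2a4 (0.53, 1.66e-04). The edgeR fit also called both without VitD 1, at adjusted p = 0.00487 for Pfkm and 0.0119 for Slc2a4. Without VitD 3 or without pMT/VitD 4 it called Slc2a4 alone, and without both libraries numbered 4 it called Slc2a4 (0.53, 0.0313) and Hk2 (0.51, 0.0415).

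None of the 10 genes separated VitD from Surgery. The log2 differences of VitD against Surgery ran from -0.21 ± 0.29 (SE) for Pygm to -0.04 ± 0.25 for Hk2 with a median of -0.12 against 0.00 over all genes. None was called by edgeR or DESeq2 or reached an unadjusted p under 0.05, and 0% of all genes were called by edgeR (139 at an unadjusted p under 0.05, and 1 by DESeq2). The interval of 2 SE on either side reached from -0.52 to 0.24 for Pfkm and from -0.79 to 0.36 for Pygm. Differences within these intervals were thus not excluded by these libraries.

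With both agents, the 8 genes other than Hk2 and Ldhb lay above both Surgery libraries in all 4 pMT/VitD libraries in CPM, as did 16.6% of all genes. In TPM, pMT/VitD 1 lay below both Surgery libraries for Pkm, Ldha, Pygm and Slc2a4. The library pMT/VitD 2 did so for Ldha and Slc2a4, and pMT/VitD 3 for Slc2a4. Pfkm passed the test, at 3316 ± 210.4 CPM (SD, n = 4) against 2105 ± 24.1 CPM (SD, n = 2), a log2 difference of 0.66 ± 0.19 (SE, edgeR adjusted p = 0.0467). That is 1 of 10, where 2.4% of all genes were called and higher. Aldoa differed more, by 0.81 ± 0.24, and did not pass (0.0543), and Gapdh, Pkm, Slc2a4, Ldha and Eno3 had adjusted p-values between 0.0683 and 0.0865. At an unadjusted p under 0.05, 8 of the 10 passed, where 24.8% of all genes did. The median log2 difference over the 10 was 0.56 against 0.00 over all genes. The call rested on the choice of libraries and tool. It was lost without either Control library, either Surgery library, VitD 2, any of pMT 1 to 3 or any of pMT/VitD 1 to 3, each left out alone. The count was 8 without VitD 1 and 6 without both libraries numbered 4, where 11.8% and 20.1% of all genes were called. It was 2 without VitD 3 and 4 without pMT 4 or without pMT/VitD 4, and for these the share of all genes is not given here. DESeq2 called 7 and 12.9% of all genes. With library size alone in place of TMM, Pfkm was not called and Ldhb was, as lower (-0.35, adjusted p = 0.0440).

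The clearest difference lay between the groups given VitD with and without pMT. Pfkm, Aldoa, Gapdh, Eno3, Pkm, Ldha, Pygm and Slc2a4 were higher in pMT/VitD than in VitD, each with all 4 pMT/VitD libraries above all 3 VitD libraries in CPM. These were 8 of the 10 genes, where 9.66% of all genes were called and higher and 13% were separated in this way. A fit of only these 2 groups called 3 of them (Pfkm, Aldoa and Gapdh) and 11.3% of the genes it tested. In TPM, which was not tested, only Aldoa and Gapdh kept every pMT/VitD library above every VitD library. Aldoa was at 16969 to 20178 TPM against 8594 to 15980, and Gapdh at 14739 to 16328 against 8702 to 13920. The other genes that passed overlapped in TPM, such as Slc2a4 at 196 to 306 against 189 to 241. Aldoa was at 22253 ± 1944 CPM (SD, n = 4) in pMT/VitD against 11247 ± 3472 CPM (SD, n = 3) in VitD, a 1.98-fold difference (0.98 ± 0.21 on the log2 scale, SE, edgeR adjusted p = 0.00499). Pygm was at 9725 ± 1044 CPM (SD, n = 4) against 5290.3 ± 2323 CPM (SD, n = 3), or 0.88 ± 0.25 (0.0218). Pfkm was at 3316 ± 210.4 CPM (SD, n = 4) against 1907 ± 498 CPM (SD, n = 3), or 0.80 ± 0.16 (0.00411). The log2 differences of the others that passed were 0.87 ± 0.20 for Gapdh (adjusted p = 0.00758), 0.73 ± 0.16 for Pkm (0.00669), 0.58 ± 0.16 for Eno3 (0.0186), 0.48 ± 0.12 for Slc2a4 (0.00950) and 0.48 ± 0.12 for Ldha (0.0134). Hk2 (0.17 ± 0.21, adjusted p = 0.606) and Ldhb (0.07 ± 0.14, 0.744) did not pass. The median of the 10 was 0.66, against 0.00 over all genes.

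The size of this difference depended on VitD 1. Without it, 7 of the 8 still passed, where 10.9% of all genes were called, and Eno3 did not (0.49, edgeR adjusted p = 0.0642), and the log2 difference was 0.56 for Pygm, 0.76 for Aldoa and 0.60 for Pfkm. Without both libraries numbered 4 all 8 passed, where 32.0% of all genes were called. With library size alone in place of TMM, the median of all genes shifted to -0.34 and that of the 10 genes to 0.32. On that scale only Aldoa, Gapdh and Pfkm passed, the other 5 kept their sign, and Hk2 and Ldhb turned negative (-0.15 and -0.27). The study adjusted its p-values and called genes at a 2-fold change or more and p under 0.05, without stating which p. Read with an unadjusted p, the looser reading, this rule called none of the 10, whose largest fold in the fit above was 1.98.

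Most of these genes were also lower in VitD than in Control. Every VitD library lay below both Control libraries for 9 of the 10 genes, Ldhb being the exception, as it did for 27.1% of all genes. The test called 5 of them, where 3.2% of all genes were called and lower. The log2 differences were -0.86 ± 0.24 for Aldoa (SE, edgeR adjusted p = 0.0402), -0.81 ± 0.19 for Pfkm (0.0199), -0.74 ± 0.19 for Pkm (0.0292), -0.53 ± 0.13 for Slc2a4 (0.0295) and -0.49 ± 0.14 for Ldha (0.0484). Pygm differed most, by -0.95 ± 0.29, and missed the threshold (0.0541). The median over the 10 was -0.62, against -0.01 over all genes, and DESeq2 called 8 and 14.4% of all genes. A fit of only these 2 groups called none of the 10, and 0.579% of the genes it tested. With library size alone, Aldoa was the 1 gene still called lower (-0.59, adjusted p = 0.0401), Pfkm (-0.54, 0.0539), Pkm (-0.47, 0.0952), Slc2a4 (-0.25, 0.308) and Ldha (-0.21, 0.266) lost their calls, and Ldhb was called higher (0.41, 0.0366). This comparison and the one before share the VitD libraries, so they are not separate evidence. The count was lower without either Control library, either Surgery library, VitD 1 or VitD 2, each left out alone. The same held without pMT 1, pMT 2, pMT/VitD 1 or pMT/VitD 2. For these fits the share of all genes is not given here, so the fall is not by itself a result about the 10 genes. The count was 9 without both libraries numbered 4, where 15.1% of all genes were called.

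The groups given pMT did not differ detectably from Control in these genes. Against Control, the log2 differences ran from -0.29 ± 0.27 (SE, Pygm) to 0.16 ± 0.16 (Ldhb) in pMT and from -0.26 ± 0.24 (Hk2) to 0.21 ± 0.16 (Ldhb) in pMT/VitD. For Pfkm the intervals of 2 SE on either side were -0.36 to 0.36 in pMT and -0.37 to 0.35 in pMT/VitD. None of the 10 was called by edgeR or DESeq2 in either, or reached an unadjusted p under 0.05, and 0% of all genes were called by edgeR in both (528 and 496 genes at an unadjusted p under 0.05, and 0 by DESeq2 in both).

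Adding VitD to pMT gave no call among the 10 genes in edgeR or DESeq2. Gapdh had the largest difference of pMT/VitD against pMT, 0.40 ± 0.18 (SE, edgeR adjusted p = 0.489), and was the 1 gene at an unadjusted p under 0.05. Over all genes edgeR called 0% (1737 at an unadjusted p under 0.05, and DESeq2 called 93). Without both libraries numbered 4, Hk2 was lower in pMT/VitD (-0.61, adjusted p = 0.00421) and Gapdh (0.60, 0.0239) and Eno3 (0.44, 0.0219) were higher. The test of whether pMT acted differently with VitD than without it (the interaction) called none of the 10 by either tool, with none at an unadjusted p under 0.05. Its largest values were 0.55 ± 0.29 for Gapdh and 0.53 ± 0.30 for Aldoa, and edgeR called 0% of all genes (888 at an unadjusted p under 0.05, and 0 by DESeq2). That 8 genes passed in pMT/VitD against VitD and none in pMT against Surgery is therefore not a shown difference between these effects.

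**Figure D2:**
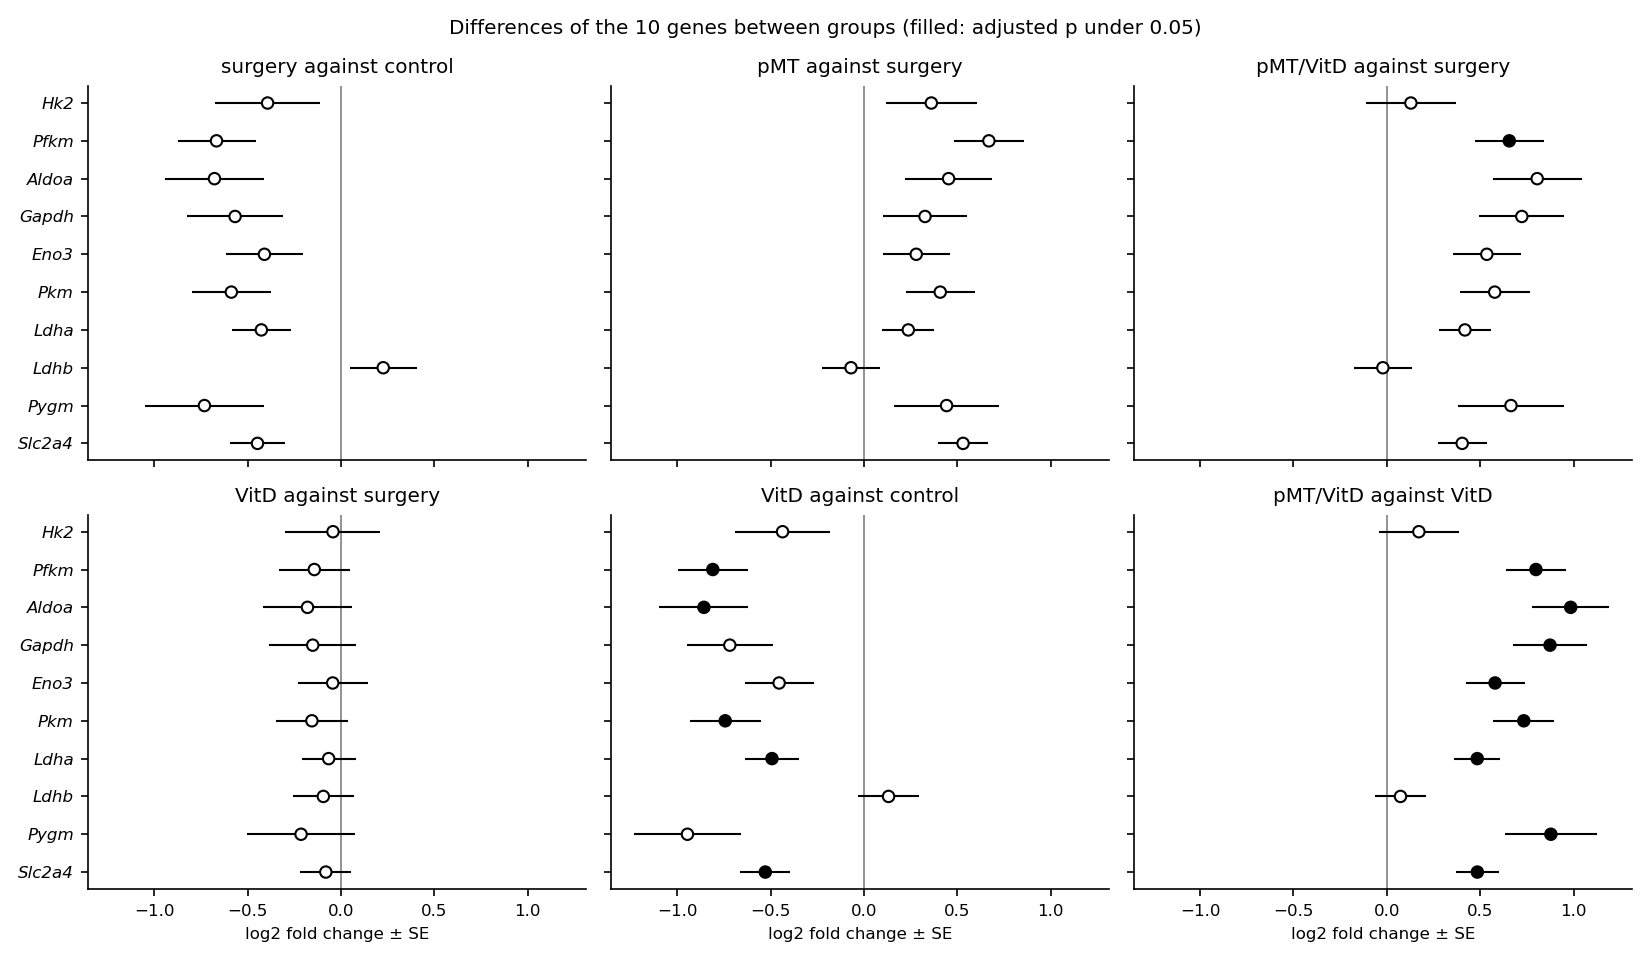
Log2 fold change of each of the 10 genes in 6 comparisons, with bars of 1 SE, from edgeR on TMM-scaled counts. Filled points passed an adjusted p of 0.05. They are 8 genes in pMT/VitD against VitD, 5 in VitD against Control and Pfkm in pMT/VitD against Surgery.

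Ratios of a muscle form to a second form of the same protein do not depend on how libraries are scaled. They were taken within each library from TPM and tested across the 5 groups by an exact permutation test of the F statistic over all 94594500 assignments of libraries to groups, adjusted over the 6 ratios. The exact test found 5 of the 6 different among groups: Slc2a4 to Slc2a1 (adjusted p = 0.0115), Pygm to Pygb (0.0115), Pfkm to Pfkp (0.0115), Ldha to Ldhb (0.0148) and Eno3 to Eno1 (0.0361). Hk2 to Hk1 missed the threshold (0.0688 in the exact test). In 4 of the ratios every Surgery and VitD library lay below every other library, the pairs of Ldha, Pygm, Pfkm and Slc2a4. Ldha exceeded Ldhb by a factor of 16.3 to 17.1 in Control, 10.1 to 11.1 in Surgery, 11.4 to 15.7 in pMT, 12.3 to 16.8 in pMT/VitD and 10.6 to 11.1 in VitD. Pygm exceeded Pygb, the brain form, by 1570.5 to 1643 in Control, 708 to 715 in Surgery, 1319 to 1548 in pMT, 1546 to 2096 in pMT/VitD and 234 to 976 in VitD. Slc2a4 exceeded Slc2a1, which encodes the basal transporter GLUT1, by 114 to 136 in Control, 77.7 to 95.3 in Surgery, 124 to 187 in pMT, 138 to 203 in pMT/VitD and 68.1 to 99.7 in VitD. Second forms such as Pygb (3.41 TPM on average) and Slc2a1 (2.07 TPM) are also made by other cells of the tissue, and in bulk RNA fewer cells of a type and less RNA per cell cannot be told apart. Eno3 to Eno1 lost its call in 10 of the 15 tests that left out 1 library, Pygm to Pygb in 3, Pfkm to Pfkp in 2, Ldha to Ldhb in 1 and Slc2a4 to Slc2a1 in 0. The number of ratios that passed was 1 without Surgery 1, 2 without Surgery 2, 3 without Control 2 and 4 without Control 1, pMT 1, pMT 2, pMT/VitD 1, pMT/VitD 2, pMT/VitD 3 or VitD 2. It was 6 without both libraries numbered 4.

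**Figure D3:**
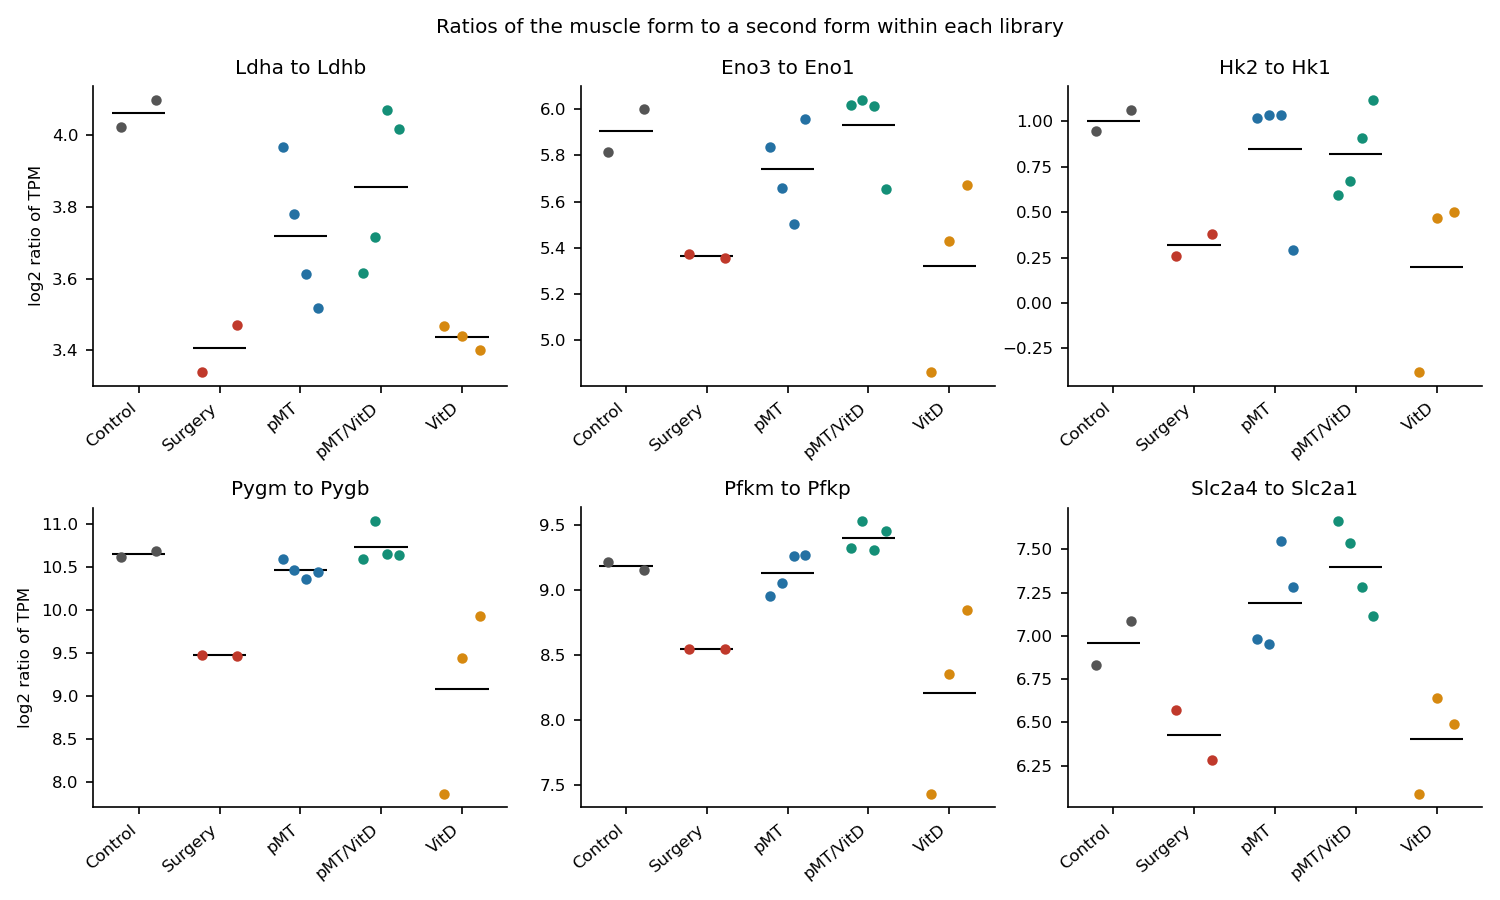
Log2 ratio of TPM of a muscle form to a second form within each library, by group, for 6 pairs. Points are libraries and lines are group means, and the vertical axes do not start at 0. Surgery and VitD points lie lowest in the Ldha to Ldhb, Pygm to Pygb, Pfkm to Pfkp and Slc2a4 to Slc2a1 panels.

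The rest of the pathway was followed with lists of its other genes. In pMT/VitD against VitD, 5 of 13 tested glycolysis enzymes outside the 10 were higher and 3 lower, with a median log2 difference of -0.04 against 0.00 over all genes. The higher ones were Gpi, Tpi1, Pgk1, Bpgm and Pgam2, and the lower ones Hk1, Pgam1 and Eno2. Over all genes, 9.66% were called and higher and 12.2% called and lower in this comparison. Pgam2, the muscle phosphoglycerate mutase and the most abundant of the list (5737 TPM), rose by 0.94 ± 0.19 (SE, edgeR adjusted p = 0.00430). Pgam1, the form of most other tissues, differed by -0.77 ± 0.15 (0.00305), and Eno2, the neuronal enolase, by -1.15 ± 0.20 (0.00177). Bpgm, which makes bisphosphoglycerate and is typical of red blood cells, rose by 0.75 ± 0.19 (0.0116). Tpi1, the triose phosphate isomerase, rose by 0.54 ± 0.11 (0.00520) and Pgk1, phosphoglycerate kinase, by 0.63 ± 0.16 (0.0142). Pklr and Ldhc were among those too low to test, and Hkdc1 was not matched by symbol.

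Among genes that set glycolytic flux and handle lactate, 5 of 11 were higher and 1 lower in pMT/VitD than in VitD, with a median of 0.54. Of all genes, 9.66% were called and higher in that comparison and 12.2% called and lower. Slc16a3, which encodes the lactate exporter MCT4 of fast muscle, rose by 1.10 ± 0.13 (SE, edgeR adjusted p = 2.44e-04). Pfkfb1 and Pfkfb4, which make or remove the activator of phosphofructokinase, rose by 0.96 ± 0.21 (0.00547) and 0.86 ± 0.16 (0.00229). Slc16a7, the transporter MCT2, differed by -0.99 ± 0.20 (0.00424). Slc16a3 was also the 1 gene of this list called in surgery against control, at -0.81 ± 0.17 (0.0315), where 1.55% of all genes were called. It was called in pMT against Surgery too, at 0.83 ± 0.15 (0.0123), with Pfkfb4 (0.88 ± 0.18, 0.0250) and Tigar (0.54 ± 0.13, 0.0449). There 1.94% of all genes were called. The abundant members Gpd1 (327 TPM) and Bsg (325 TPM) did not pass in pMT/VitD against VitD, at 0.62 ± 0.29 (0.144) and 0.20 ± 0.11 (0.207). The comparisons of Surgery with Control and of pMT with Surgery share the Surgery libraries.

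Of the glycogen genes, 5 of 22 were higher and 2 lower in pMT/VitD than in VitD, with a median of 0.28. Of all genes, 9.66% were called and higher there and 12.2% called and lower. Ppp1r3c, which targets protein phosphatase 1 to glycogen and favors its storage, had the largest difference, 1.40 ± 0.20 (SE, edgeR adjusted p = 5.23e-04). It was at 589, 245, 604, 599.9 and 227 CPM on average in Control, Surgery, pMT, pMT/VitD and VitD. It was called lower in Surgery than in Control (-1.27 ± 0.25, 0.0279), higher in pMT than in Surgery (1.30 ± 0.23, 0.0118), higher in pMT/VitD than in Surgery (1.29 ± 0.23, 0.00539) and lower in VitD than in Control (-1.38 ± 0.22, 0.00473). Phka1, the muscle regulatory subunit of the kinase that activates phosphorylase, rose by 0.78 ± 0.26 (0.0429) in pMT/VitD against VitD, and Gsk3a, a kinase that restrains glycogen synthase, by 0.65 ± 0.11 (0.00190). Pgm1, which links glycogen to glycolysis and is the most abundant of the list (903 TPM), rose by 0.59 ± 0.15 (0.0137). Pygb, the brain form of phosphorylase, differed by -0.65 ± 0.16 (0.0115). Genes of glycogen storage and genes of its breakdown were both among the single genes called higher, and the list was not tested as a set.

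Genes of glucose uptake and pyruvate fate came next along the pathway. In pMT/VitD against VitD, 9.66% of all genes were called and higher and 12.2% called and lower. The counts of both lists lay near these shares and are not results about the lists. Of 11 uptake genes beside Slc2a4, 0 were higher and 1 lower in pMT/VitD than in VitD (median -0.09). The lower one was Lnpep, an aminopeptidase that travels with GLUT4 vesicles, at -0.41 ± 0.10 (SE, edgeR adjusted p = 0.00899). Akt2, a kinase of insulin signaling, was at 0.26 ± 0.13 (0.164), and Rab10, a trafficking GTPase, at 0.13 ± 0.15 (0.558). Of 12 genes at the pyruvate dehydrogenase step, 2 were higher (Pdk2, 0.83 ± 0.18, 0.00602, and Mpc1, 0.63 ± 0.17, 0.0195) and 1 lower (Pdk3, -0.94 ± 0.23, 0.0104), with a median of 0.22. Mpc1 is part of the carrier that brings pyruvate into mitochondria, and Pdk2 and Pdk3 are kinases that inhibit pyruvate dehydrogenase. Pdk4, the kinase that rises in fasting muscle, was at 0.03 ± 0.29 (0.953). In surgery against control none of the uptake genes or pyruvate genes was called by edgeR (2 of 11 and 4 of 12 at an unadjusted p under 0.05, where 17.0% of all genes passed).

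**Figure D4:**
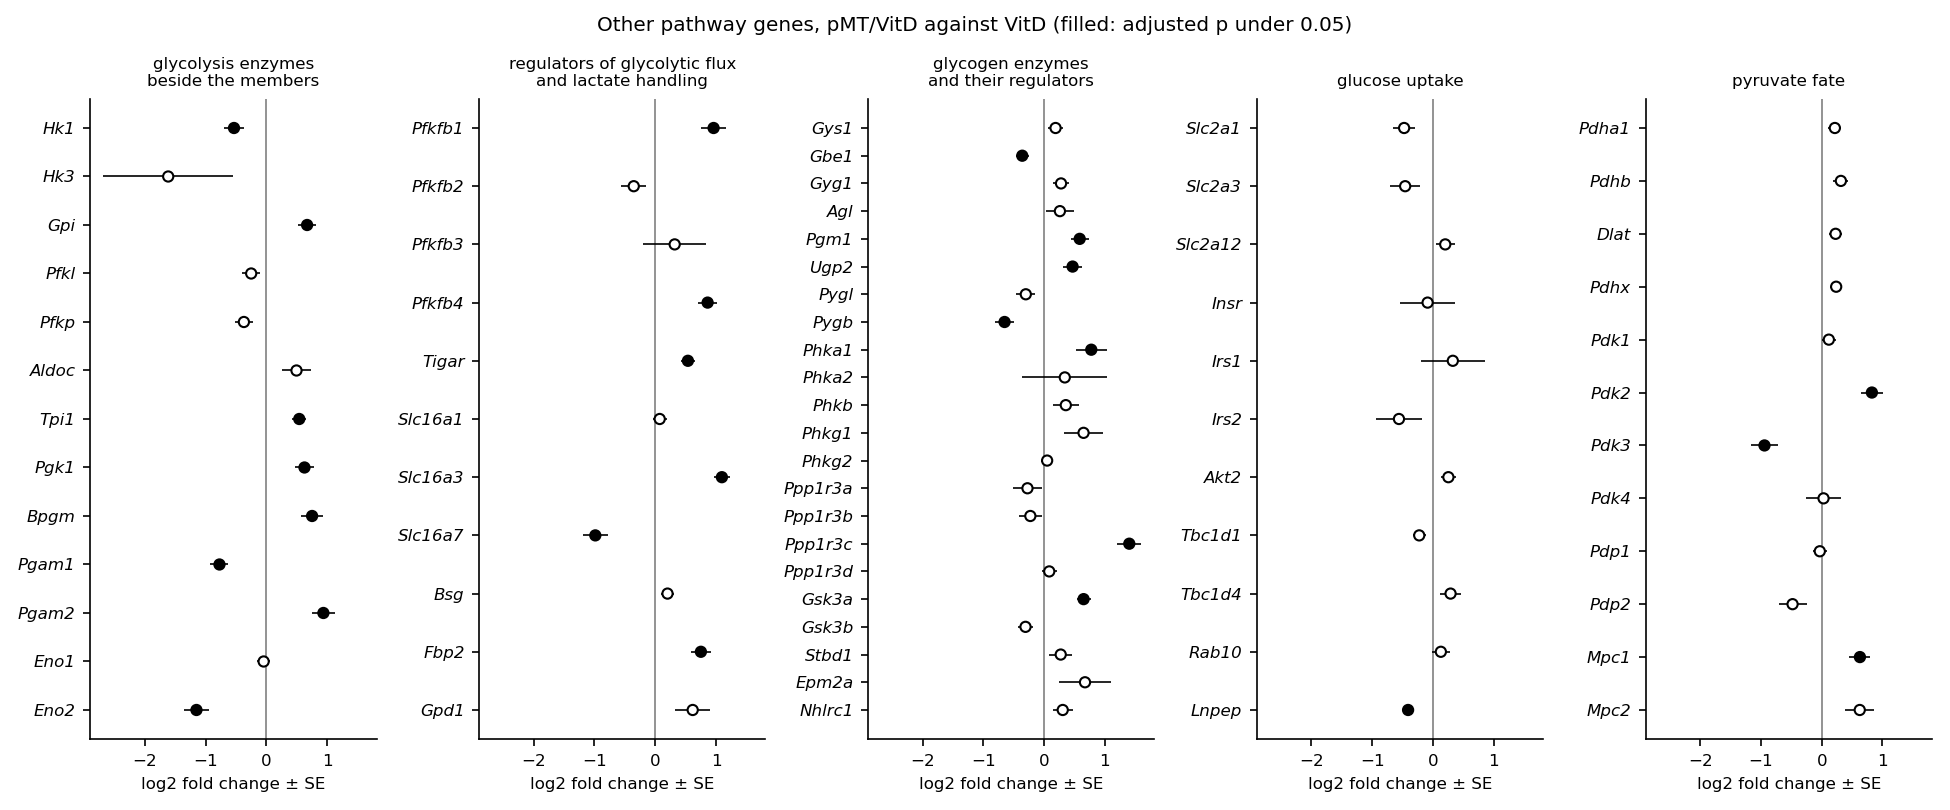
Log2 fold change of other pathway genes in pMT/VitD against VitD, with bars of 1 SE, from edgeR on TMM-scaled counts, in 5 lists. Filled points passed an adjusted p of 0.05. Most filled points of the glycolysis, flux and glycogen lists lie to the right of 0, led by Ppp1r3c at 1.40.

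Some markers of other cells and of fiber state also differed between the groups, in part in the opposite direction to the 10 genes. Macrophage genes were all 7 called lower in pMT/VitD than in VitD, where 12.2% of all genes were, and their summed level was 229 to 242 CPM in Control, 459 to 462 in Surgery, 198 to 257 in pMT, 181 to 258 in pMT/VitD and 391 to 626 in VitD. Of 5 fibroblast genes 4 were lower, with sums of 2438 to 2467, 4214 to 4239, 2385 to 2825, 1799 to 2634 and 3552 to 6653 CPM in the same order. Of 8 genes of denervation and regeneration 7 were lower, with sums of 270.3 to 281, 855 to 876, 136 to 428, 154 to 271 and 468 to 2110.0 CPM. VitD 1 had the highest sum of all libraries in each of these 3 lists and the lowest sum of the 10 genes. Fast-fiber genes summed to 161690.0 to 162219 CPM in Control, 130235 to 130734 in Surgery, 136229 to 157304 in pMT, 152956 to 182572 in pMT/VitD and 109147 to 138003 in VitD, and 3 of 11 (Myh4, Tnnc2 and Tnni2) were called higher in pMT/VitD than in VitD. Of the 6 defining muscle genes 3 (Ckm, Des and Myoz1) were called higher, and of 4 red blood cell genes all 4, with sums of 349.7 to 917 CPM in pMT/VitD and 227 to 435 CPM in VitD. Over all genes, 9.66% were called and higher in pMT/VitD against VitD. The remaining lists gave 1 call lower each among 9 slow-fiber genes (Casq2), 4 endothelial (Pecam1), 3 smooth muscle (Cnn1) and 4 Schwann cell genes (Pmp22), and none among 6 adipocyte genes (1 at an unadjusted p under 0.05). Yet 7 of the 9 slow-fiber genes had a positive log2 difference, with a median of 0.21. Slow-fiber sums were highest in pMT 4 (8817 CPM), pMT/VitD 1 (8745) and pMT/VitD 2 (8090), and 5457 to 6666 in VitD. No marker of these lists was at 0 in any library. The part of these cells and fiber states in the levels of the 10 genes was not tested.

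**Figure D5:**
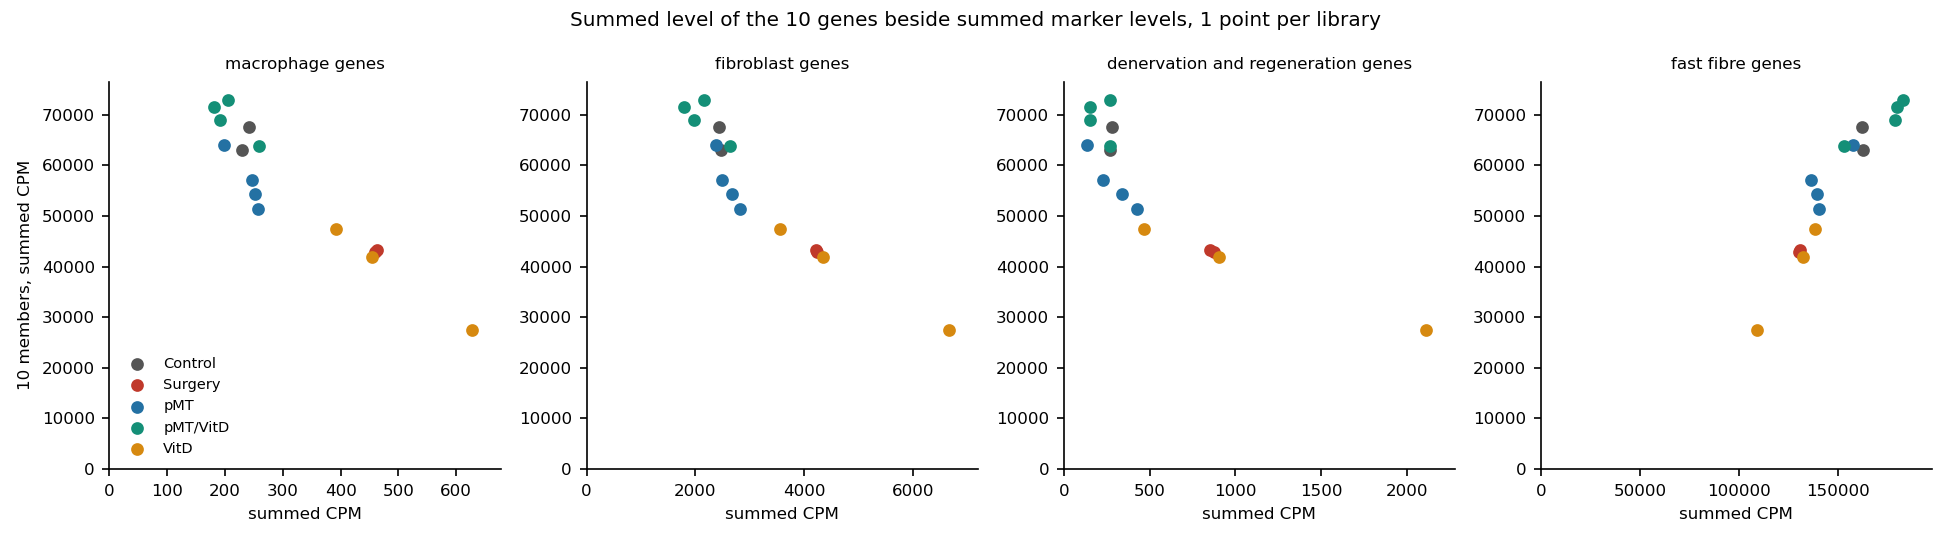
Summed level of the 10 genes (vertical axis, TMM-scaled CPM) beside the summed level of 4 marker lists (horizontal axes, same unit), with 1 point per library and all axes from 0. Surgery and VitD libraries combine low sums of the 10 genes with high macrophage, fibroblast and denervation sums, and VitD 1 is the extreme point of each panel.

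Likeness among the 10 genes varied. As a description over the same 15 libraries, which share groups and depth, Pearson correlations of log2 CPM were highest for Aldoa with Gapdh (0.98), Pkm with Pygm (0.98) and Gapdh with Eno3 (0.98). Among the 8 genes other than Hk2 and Ldhb the lowest was Eno3 with Slc2a4 (0.64), followed by Gapdh with Slc2a4 (0.68) and Eno3 with Pygm (0.72). Hk2 with Ldhb had the lowest of all, -0.72. Among 3031 other genes of at least 5 in mean log2 CPM and outside every list, those closest to the mean pattern of the 10 were Kcnj11 (0.99), Ddx23 (0.99), Lmo4 (0.98), Ak1 (0.98) and Adssl1 (0.98). Kcnj11 encodes the pore of the ATP-sensitive potassium channel, Ak1 is the muscle adenylate kinase and Adssl1 the muscle adenylosuccinate synthase. Ddx23 is a spliceosomal helicase and Lmo4 a transcriptional cofactor.

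Some of these genes have near-identical copies in the rat genome that can share reads. Rows named as copies carried 11.7% to 17.2% and 2.94% to 4.0% of the Pkm count (LOC100362738 and LOC100364062), and 4.74% to 5.09% and 2.31% to 2.62% of the Gapdh count (LOC108351137 and Gapdh-ps2). A copy of Ldha (RGD1562690) carried 2.52% to 2.93%. Levels of Pkm, Gapdh and Ldha are uncertain to that extent. Adding the counts of the copies to their gene left the number of calls among the 10 as it was in each comparison.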

How the data were processed

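RNA of 15 multifidus libraries was sequenced by the authors. Per the labels and the submitters' processing notes, reads were trimmed with Trimmomatic 0.38, aligned to rn6 with HISAT2 2.1.0 (Bowtie2 is also named), sorted with SAMtools 1.9 and quantified per gene with StringTie 2.1.3b. The authors deposited read counts, FPKM and TPM for 37991 genes. The deposited counts were the basis of all tests, the deposited TPM (scaled per length to a common total) of levels between genes and of ratios, and the deposited FPKM were not used.

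Groups came from the labels. Genes were filtered with filterByExpr (17201 kept), scaled by TMM and fitted in edgeR 4.0.16 (R 4.3.3) with a robust quasi-likelihood model over all 15 libraries, adjusted by Benjamini-Hochberg and called at an adjusted p under 0.05. A SE was the log2 difference divided by the square root of F, and intervals span 2 SE on either side. Exact permutation tests of ratios were run with NumPy 2.4.6 and numba 0.67.0 in Python 3.11.15, and figures were drawn with matplotlib 3.10.9. DESeq2 1.42.0, other scalings and filters, the replicate number as a block, removal of a gene length trend and leaving out libraries were alternatives. The fit was tested on simulated data.

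The 10 genes and all lists were chosen with earlier results of these data known. From the other lists, the genes named with values were called genes (at most the 4 with the largest log2 difference in a comparison) and the 3 most abundant. Counts are reads without molecular identifiers. Replicate libraries differed by more than sampling noise, which does not show that they came from separate rats. Each was counted on its own. The Surgery pair differed least, with a chi-square per degree of freedom of 4.55 against 20.5 to 416 in the other pairs within a group. Promoter sequence came from RefSeq on GRCr8, another build than that of the counts, and gave letters only.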

Additional observations from a re-analysis of the deposited data

Results flagged for a closer look

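Among 32 groups of 4 libraries (the 10 genes in CPM and the 6 ratios, in pMT and in pMT/VitD), 6 held a library far from the other 3 by Dixon's test. Chance gives about 1 in 20. In pMT, the library pMT 4 had 3258 CPM of Pfkm where the others had 3373 to 3383, 193 CPM of Ldhb where the others had 141 to 149.9, and a log2 ratio of Hk2 to Hk1 of 0.29 where the others had 1.02 to 1.04. In pMT/VitD, the library pMT/VitD 4 had 553 CPM of Slc2a4 where the others had 473 to 480.2, and a log2 ratio of Eno3 to Eno1 of 5.65 where the others had 6.01 to 6.04. The library pMT/VitD 2 had a log2 ratio of Pygm to Pygb of 11.03 where the others had 10.59 to 10.66.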

How the results depend on the processing

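The count of genes called among the 10 stayed at 0 under all alternatives run for VitD against Surgery, pMT against Control, pMT/VitD against Control and the interaction. Counts in this section are of the 10 genes only. The share of all genes called also changed with the setting, as given above for some of them. A higher or lower count here is therefore not by itself a result about the 10 genes. The 14 calls of single genes gave 378 values under alternatives, of which 281 stayed past the threshold, 97 did not and 0 changed sign. With library size alone the count was 3 in the test of any difference, 1 in surgery against control (Ldhb), 3 in pMT/VitD against VitD and 2 in VitD against Control (Aldoa and Ldhb). That scaling moved the median log2 difference of all genes to 0.25, -0.34 and 0.27 in these 3 comparisons, to -0.32 in pMT/VitD against Surgery and to -0.12 in pMT against Surgery. With library sizes that leave out the 13 mitochondrial protein genes, an alternative chosen after seeing the data, it was 3, 4 in pMT/VitD against VitD, 3 in VitD against Control and 0 in pMT/VitD against Surgery. In pMT/VitD against Surgery it was 2 with RLE size factors, 0 with no filter on low counts and 2 with at least 10 counts in every library, and with no filter it was 3 in VitD against Control.

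Removing the gene length trend gave 8 in the test of any difference, 2 in pMT against Surgery, 7 in pMT/VitD against Surgery and 8 in VitD against Control. Without both libraries numbered 4 these were 8, 2, 6 and 9, and 3 in pMT/VitD against pMT. DESeq2 gave 8, 2, 7 and 8, and 4 in surgery against control. A fit of only the 2 groups compared gave 10 in surgery against control, 4 in pMT/VitD against Surgery, 3 in pMT/VitD against VitD and 0 in VitD against Control. The exactTest rule of the study, read with an unadjusted p, gave 0 in pMT/VitD against Surgery, pMT/VitD against VitD and VitD against Control. The cause of these changes was not tested.

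Leaving out 1 library gave 2 to 7 in the test of any difference, 0 to 5 in surgery against control, 0 to 2 in pMT against Surgery, 0 to 8 in pMT/VitD against Surgery, 7 to 8 in pMT/VitD against VitD, 0 to 7 in VitD against Control and 1 to 6 for the ratios. A lone Control or Surgery library was then taken to vary like the other groups.

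Replicate numbers did not pair the libraries: of 24 pairs with the same number, 2 had deviations correlated above 0.1, with a median of 0.010, and the labels give the numbers no further meaning. Of 64 pairs with different numbers, 8 were above 0.1. The lowest value of all was -0.50, for pMT 4 with pMT/VitD 4, and the highest was 0.43, for pMT 4 with pMT/VitD 1. With the replicate block the count was 1 in the test of any difference, 0 in pMT/VitD against Surgery, 3 in VitD against Control and 6 in pMT/VitD against VitD. Groups of 2 to 4 libraries limit what could be detected.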
